A study of Homo sapiens with 6 samples.

Results

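NACC2 and NACC1 are a pair of related transcriptional repressors that carry a BTB domain and a BEN domain, and NuRD is the nucleosome remodelling and deacetylase complex that such repressors can bring to a promoter. The genes described here are NACC2, NACC1 and 8 genes of NuRD subunits (CHD3, CHD4, HDAC1, HDAC2, MTA1, MTA2, MBD3 and RBBP4). Every probe set to which the platform annotation of the array gives 1 of these 10 symbols and no other was taken, which made 24 of 54613 probe sets. Each probe set combines the signals of several short oligonucleotides matching 1 transcript, or a few similar ones. The 10 genes are among 19775 genes with such a probe set. They were chosen by the log2 signals compared below, in which NACC2 stood out, so the values of that comparison describe the 10 genes and do not test them.

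Total RNA came from A549, an established human lung adenocarcinoma line, and was hybridised to Affymetrix HG-U133 Plus 2.0 arrays. In 3 arrays the cells had been transiently transfected with siRNA against NME2, a nucleoside diphosphate kinase and DNA-binding protein known as a suppressor of metastasis. In the other 3 the cells had received control siRNA duplexes. The question was which transcripts change when NME2 is silenced. All 6 samples are of the same line, with no untransfected cells among them, and the siRNA sequences were not used here. The series text calls the replicates biological but describes no separate cultures, so p-values measure only the spread between these samples.

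NuRD joins 2 activities in a single complex. CHD3 and CHD4 are ATP-driven nucleosome remodellers, and HDAC1 and HDAC2 remove acetyl groups from histone tails. MTA proteins are scaffolds that hold the deacetylases, MBD3 links the deacetylase and remodeller parts, and RBBP4 is a histone-binding chaperone that is shared with other complexes. In the literature on human cells NACC2 is known for repressing MDM2, the ubiquitin ligase of p53, together with NuRD.

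The silencing could be seen in the arrays. The probe set for NME2, which also covers the read-through transcript NME1-NME2, had signals of 1920, 3676 and 3216 in NME2-depleted cells, against 17862, 19389 and 21044 in control cells (log2 difference -2.78, SE 0.19, limma adjusted p = 0.00032). Keratins and EPCAM marked both groups as epithelial, with 5 of 5 epithelial markers above the filter on dim probe sets, as were 2 of 3 leukocyte, 1 of 3 endothelial and 3 of 4 fibroblast markers. The leukocyte marker PTPRC, the endothelial markers CDH5 and VWF and the fibroblast marker COL1A2 lay below it. The summed signals of 5 epithelial markers lay between 47720 and 52650 in NME2-depleted cells and between 50140 and 56460 in control cells. EPCAM, with a log2 difference of 0.71 (SE 0.16), and CDH1, with 0.21, were higher in all depleted arrays and KRT8, with -0.24, was lower in all of them, and each missed the threshold (limma adjusted p = 0.0884, 0.324 and 0.209). The 3 leukocyte markers summed to between 280.2 and 430.9 in depleted cells and between 353.9 and 445.5 in control cells. Sums over 3 endothelial markers were 253.5 to 305.1 in depleted cells and 175.6 to 275.3 in control cells, and over 4 fibroblast markers 743.2 to 873.6 in depleted cells and 580.2 to 751.4 in control cells. The interferon-induced gene MX1 had 144.6, 144.9 and 112.3 in depleted cells and 3299.2, 531.3 and 697.8 in control cells. It was lower in all depleted arrays, with a log2 difference of -3.01 (SE 0.51, limma adjusted p = 0.0379). No probe set of all 27307 tested had a difference below -3.01. Within the control arrays, replicate 1 stood apart in MX1. The ratio of 3′ to 5′ signal of ACTB, a sign of RNA quality, was 1.326, 1.343 and 1.396 in depleted cells and 1.198, 1.305 and 1.234 in control cells, so the groups did not overlap in it. The same ratio of GAPDH did overlap, at 1.008, 0.985 and 1.064 in depleted cells and 0.993, 0.970 and 1.021 in control cells. The part of the markers, of MX1 and of these ratios in the results below was not tested.

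The region upstream of NACC2 and of its relative NACC1 is shown first, because the related pair differed in the comparison below. The 250 bases before each start site in RefSeq (GRCh38.p14) lie at chr9:136095290-136095539, minus strand, for NACC2 and at chr19:13118014-13118263, plus strand, for NACC1, and are written on the strand of the gene. Capitals mark GC boxes, the letters GGGCGG on either strand.
NACC2: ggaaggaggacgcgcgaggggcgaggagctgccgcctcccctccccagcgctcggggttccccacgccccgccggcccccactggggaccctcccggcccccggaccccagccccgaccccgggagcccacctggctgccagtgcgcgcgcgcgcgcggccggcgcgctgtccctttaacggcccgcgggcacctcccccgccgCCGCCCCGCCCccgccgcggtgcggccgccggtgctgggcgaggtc
NACC1: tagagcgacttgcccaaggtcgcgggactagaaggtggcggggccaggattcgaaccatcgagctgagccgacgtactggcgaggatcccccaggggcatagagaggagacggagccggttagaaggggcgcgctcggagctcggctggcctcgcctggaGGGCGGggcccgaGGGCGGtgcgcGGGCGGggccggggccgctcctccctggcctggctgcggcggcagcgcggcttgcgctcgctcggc
Both windows were rich in G and C, at 83.2% with 38 CpG dinucleotides upstream of NACC2 and at 73.6% with 31 upstream of NACC1. NACC2 had 2 GC boxes, which share 1 base, and NACC1 had 3. Of the 10 genes, all of which matched the RefSeq table by symbol, 8 had a GC box in this window, and so did 42.6% of all 35116 promoters in it. Neither NACC2 nor NACC1 had a CCAAT box (CCAAT on either strand, 32% of all promoters) or the E-box CACGTG (6.34% of all). These matches are letters in a window, and binding was not measured in these samples.

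The NACC2 transcript was 2.01-fold lower in NME2-depleted cells by its brighter probe set. Probe set 212993_at had signals of 1297.9, 1206.8 and 1441.1 in depleted cells, against 2419.1, 2448.7 and 3093.3 in control cells. All 3 depleted arrays lay below all 3 control arrays, and the highest depleted signal was well under the lowest control signal. The mean was 1315 ± 118 in depleted cells and 2654 ± 381 in control cells (SD, n = 3 each), a log2 difference of -1.01 (SE 0.11). Subtracted within replicate numbers 1, 2 and 3, which were not taken as pairs, the log2 difference was -0.90, -1.02 and -1.10. From the fit it was -1.07 without control replicate 1. In a bulk sample, fewer cells that express a gene and less of its RNA per cell cannot be told apart.

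The other NACC2 probe set, 230050_at, was lower too, but by less, and it did not reach a limma adjusted p under 0.05. It had signals of 349.4, 339 and 356.7 in depleted cells and 438.2, 413.9 and 445.1 in control cells, again without overlap. Its log2 difference was -0.31 (SE 0.12), or 1.24-fold lower. Within the 3 replicate numbers, again not taken as pairs, it was -0.33, -0.29 and -0.32. The 2 probe sets therefore differ in size and not in direction. The mean of both differences was -0.66, so the decrease in NACC2 transcript is given by these arrays only as a range. Probe sequences and the transcript forms that each probe set covers were not analysed here.

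**Figure D1:**
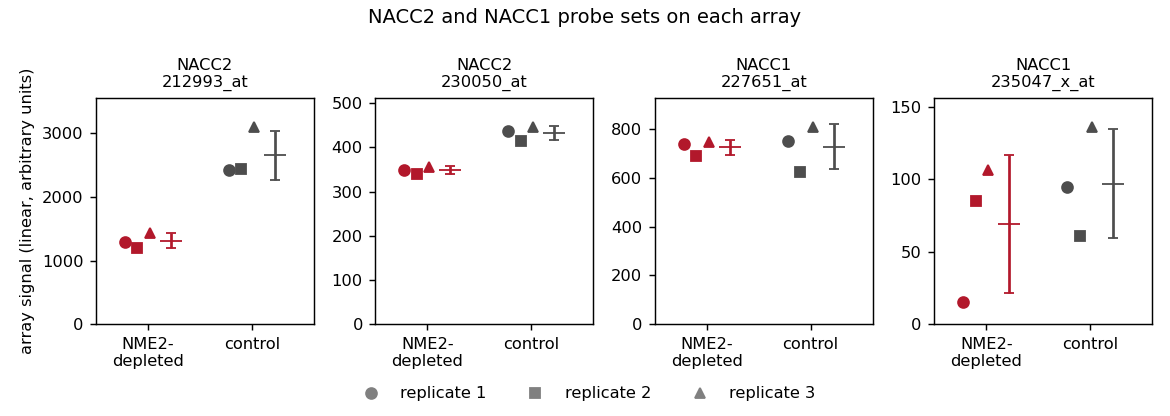
Signals of the NACC2 and NACC1 probe sets on each array. Array signal is drawn upwards on a linear scale from 0. Points are arrays, with a symbol for each replicate number, and the bar beside them is their mean with its SD (n = 3), NME2-depleted left of control. Both NACC2 probe sets were lower in all depleted arrays, with 1315 against 2654 in the brighter one, whereas the brighter NACC1 probe set had 723.1 against 725.3.

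NACC1 had nearly equal means in both groups. It encodes a nuclear co-repressor that is known for high levels in several carcinomas. Its brighter probe set, 227651_at, had signals of 738.6, 686.1 and 744.6 in depleted cells and 747.6, 623.7 and 804.5 in control cells, and the groups overlapped. The means were 723.1 ± 32.2 and 725.3 ± 92.4 (SD, n = 3 each), a log2 difference of 0.00 (SE 0.12). The dimmer one, 235047_x_at, had 15.4, 84.9 and 106.3 in depleted cells and 94.3, 60.8 and 135.6 in control cells, and was below the filter. The log2 ratio of NACC2 to NACC1 signal within an array was 0.81, 0.81 and 0.95 in depleted cells and 1.69, 1.97 and 1.94 in control cells. Only the difference of this ratio between arrays, -1.01, carries meaning, because probe sets differ in brightness for the same amount of RNA. It was -1.02 after quantile normalization. With NACC1 at 0.00, this difference repeats that of NACC2 and is no further result. Such ratios were computed for the 3 pairs of relatives measured above the filter, and this was decided after the values had been seen.

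Of the 24 probe sets, 22 passed the filter on dim probe sets, which kept the brighter part of all probe sets by mean log2 signal, from a signal of 71.7 upwards. They covered 9 of the 10 genes. NACC2 212993_at was the 1 of these 22 with a limma adjusted p under 0.05, which 0.396% of all 27307 tested probe sets reached, and it missed that level when limma was run with no intensity trend. The groups did not overlap for 4 of the 22, close to the 18.6% of all tested probe sets, and these were both NACC2 probe sets, 1 of MBD3 and that of HDAC1. Both counts rest on the comparison by which NACC2 was picked and are given as a description. Log2 differences of the 22 ran from -1.01 to 0.19 with a median of -0.07, against 0.01 over all tested probe sets. The log2 difference was below 0 for 16 of the 22, or 72.7%, against 47.5% of all. Several of these probe sets belong to the same gene. By the brightest probe set of each gene it was below 0 for 6 of 9, or 66.7%, against 49.8% of all 12406 genes. Both shares include NACC2, by which the genes were picked.

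**Figure D2:**
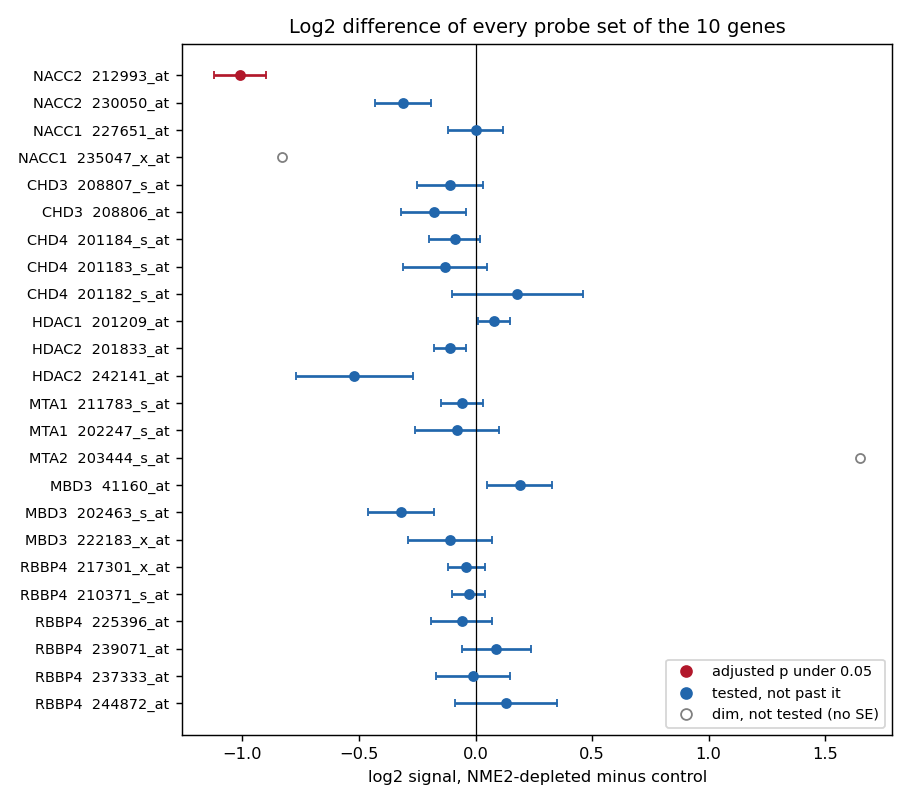
Log2 difference in signal, NME2-depleted minus control, of all 24 probe sets of the 10 genes. Points are probe sets, bars are the standard error of the limma fit, red marks an adjusted p under 0.05, and open points are the 2 probe sets that were too dim to test. NACC2 212993_at, at -1.01, lies apart, and the other tested probe sets lie between -0.52 and 0.19.

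Among the remodellers, CHD4, the main NuRD ATPase of most cells, had 1079, 999.1 and 871.3 in depleted cells and 1117.2, 949.7 and 1058.7 in control cells by its brightest probe set, 201184_s_at. The groups overlapped, and the log2 difference was -0.09 (SE 0.11). Its other probe sets differed by -0.13 (SE 0.18) and 0.18 (SE 0.28), with the largest error on the dimmest. CHD3, a close relative that takes the same place in the complex, had 1112.7, 1440.1 and 1295.1 in depleted cells and 1116.1, 1446.9 and 1614.5 in control cells (208807_s_at, log2 difference -0.11, SE 0.14). In both groups replicate 1 was the lowest array for CHD3. The other CHD3 probe set, 208806_at, gave -0.18 (SE 0.14). In the log2 ratio of CHD3 to CHD4 signal, the depleted arrays had 0.04, 0.53 and 0.57 and the control arrays -0.00, 0.61 and 0.61. The means were 0.38 ± 0.29 and 0.40 ± 0.35 (SD, n = 3 each), and replicate 1 was the lowest array in both groups.

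The deacetylase genes had small standard errors and small differences of opposite sign. HDAC1 201209_at had 2692.1, 2858.9 and 2679.8 in depleted cells, against 2539, 2621.4 and 2604.8 in control cells. Every depleted array was above every control array, although the gap was small, and the log2 difference was 0.08 (SE 0.07). HDAC2, its close relative, had 2773.6, 3066.8 and 2876.6 in depleted cells and 3062.9, 3188.5 and 3161.1 in control cells by 201833_at (log2 difference -0.11, SE 0.07). Those groups overlapped by a small margin, since 1 depleted array at 3066.8 was just above the lowest control array at 3062.9. The log2 ratio of HDAC1 to HDAC2 signal was -0.04, -0.10 and -0.10 in depleted cells and -0.27, -0.28 and -0.28 in control cells. This ratio did not overlap between groups and differed by 0.20, which was also the value after quantile normalization, and it was picked out after the values had been seen. The dimmer HDAC2 probe set, 242141_at, had 99.1, 185.3 and 122.1 in depleted cells and 177.5, 211.3 and 177.1 in control cells, with a larger difference and a larger error (-0.52, SE 0.25).

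**Figure D3:**
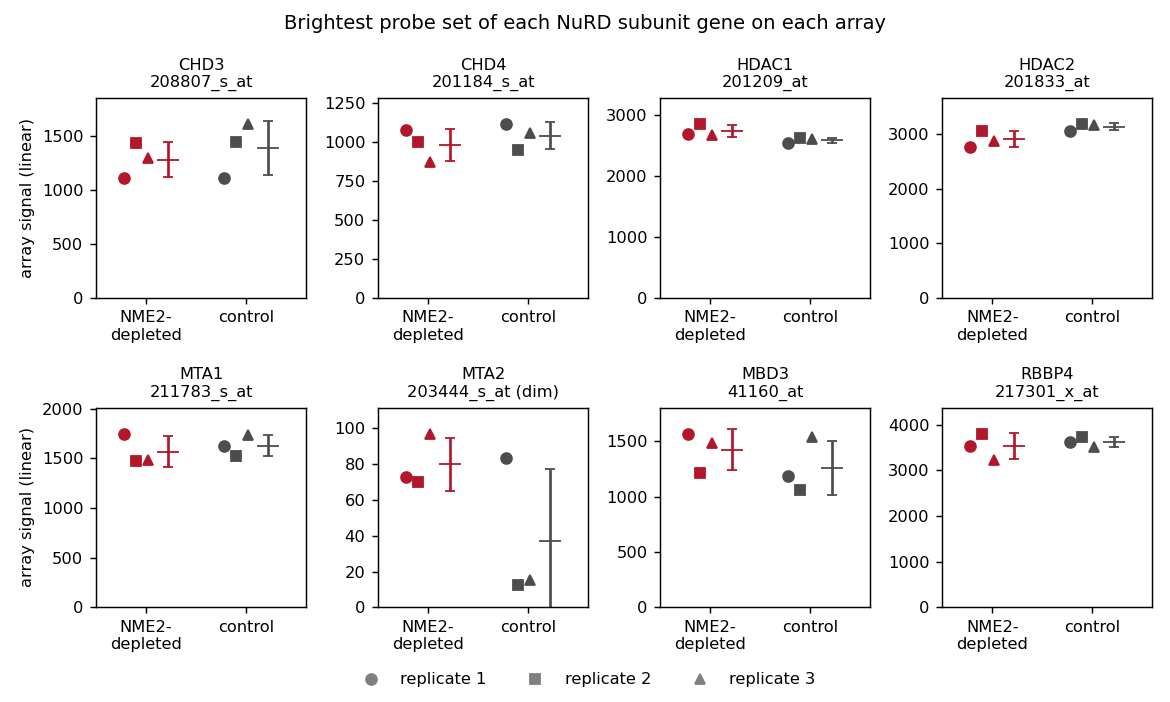
Signals of the brightest probe set of each of 8 NuRD subunit genes on each array. Array signal is drawn upwards on a linear scale from 0, symbols mark replicate numbers, and the bar is the mean with its SD (n = 3), NME2-depleted left of control. The groups overlap in all panels except HDAC1, where 2744 ± 100 stood against 2588 ± 43.6, and the SD bar of MTA2 in control cells is cut off at 0.

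Of the scaffold genes, MTA1 could be measured and MTA2 could not. MTA1, first described as a metastasis-associated gene, had 1750.2, 1477.6 and 1482.1 in depleted cells and 1629.8, 1523.4 and 1735.5 in control cells by 211783_s_at. The groups overlapped and differed by -0.06 (SE 0.09), and the second MTA1 probe set by -0.08 (SE 0.18). The 1 probe set of MTA2, 203444_s_at, had 72.7, 70 and 97.1 in depleted cells and 83.5, 12.3 and 15.5 in control cells. Control replicate 1 lay among the depleted arrays, and the log2 difference of 1.65 rests on control replicates 2 and 3, which had signals far under the filter's 71.7. Detection calls were not used here, so these signals give no level for MTA2.

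The 3 probe sets of MBD3, a relative of the methyl-CpG-binding proteins that binds methylated DNA poorly, did not point the same way. The brightest, 41160_at, had 1568.1, 1214.5 and 1487.8 in depleted cells and 1181.7, 1059.7 and 1534.1 in control cells (log2 difference 0.19, SE 0.14), with overlap. Probe set 202463_s_at had 398.4, 314.5 and 387.3 in depleted cells and 494.6, 404.9 and 467.4 in control cells, and was lower in every depleted array (-0.32, SE 0.14). The third, 222183_x_at, differed by -0.11 (SE 0.18). The mean over the 3 was -0.08, so no direction can be given for MBD3.

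RBBP4 was covered by 6 probe sets, which differed little between groups. Its brightest, 217301_x_at, had 3539.4, 3806.9 and 3234.6 in depleted cells and 3628.9, 3738 and 3520.6 in control cells (log2 difference -0.04, SE 0.08), and 210371_s_at gave -0.03 (SE 0.07). The remaining 4 RBBP4 probe sets differed by -0.06, 0.09, -0.01 and 0.13, with standard errors of 0.13, 0.15, 0.16 and 0.22. In all 6 the groups overlapped. Probe sets whose names end in _x_at can also bind similar transcripts, so the brightest RBBP4 signal may hold more than RBBP4.

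Other genes of NuRD and of related repressor complexes were read from lists drawn up for this comparison, with each gene represented by its brightest tested probe set. None of the 56 genes measured in 6 lists passed a limma adjusted p of 0.05, a level that 0.54% of all 12406 genes reached. At an unadjusted p under 0.05 it was 11 of 56 by limma and 8 of 56 by the methods' t-test, and with Benjamini-Hochberg adjustment it was 0 of 56 by that test too. Over all genes, 1862 of 12406 had an unadjusted limma p under 0.05, and 1596 of 12406 by the methods' test. After adjustment the methods' test gave 0 of all 12406 genes, so its 0 of 56 says nothing about these lists.

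In the list of other NuRD subunits 6 of 7 genes were measured, with a median log2 difference of -0.02. GATAD2A, a p66 subunit that connects the deacetylase part with CHD proteins, had 629.8, 944.2 and 671.1 in depleted cells, against 1082, 961.7 and 1166.8 in control cells. These groups did not overlap, but depleted replicate 2 came close to the lowest control array, and the difference missed the threshold (-0.54, SE 0.15, adjusted p = 0.151). Its 3 other tested probe sets gave -0.31, -0.21 and 0.15. Its relative GATAD2B had -0.17 (adjusted p = 0.607). MBD2, the methyl-CpG-binding alternative to MBD3, had -0.03, MTA3 -0.01, CDK2AP1, a small NuRD subunit, 0.01, and RBBP7, the relative of RBBP4, 0.00, with adjusted p-values from 0.909 to 0.997.

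HDAC1 and HDAC2 also serve the SIN3, CoREST and related complexes, and HDAC3 serves the NCoR complex. Of 27 such genes 22 were measured, 13 had a log2 difference below 0, and the median was -0.02. The genes of lowest p were TBL1XR1, of the NCoR complex (-0.29, SE 0.08, adjusted p = 0.162), the MIER family members MIER2 (-0.42, adjusted p = 0.25), MIER1 (0.24, adjusted p = 0.274) and MIER3 (0.39, adjusted p = 0.304). The other tested TBL1XR1 probe sets gave -0.21, 0.03 and -0.00. The 3 MIER genes, whose proteins share ELM2 and SANT domains with the MTA proteins, did not share a direction.

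RBBP4 is also part of PRC2, of the chromatin assembly factor CAF-1, of the NURF remodeller and of MuvB. The list for these complexes also held HAT1, a histone acetyltransferase gene. All 12 genes of the list were on the array and 10 were measured, with a median of 0.00 and 5 of 10 below 0. CHAF1A, the large CAF-1 subunit, had -0.52 (SE 0.23, adjusted p = 0.368) by its brightest probe set, while its other 2 tested probe sets had 0.08 and 0.01. CHAF1B had -0.38 (adjusted p = 0.573), EED -0.11 and LIN52 0.13.

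Repressors other than NACC2 that recruit NuRD had a median of 0.01 over 8 measured genes of 12. ZFPM1, a cofactor of GATA factors, had 880.1, 841.8 and 983.4 in depleted cells, against 1129.7, 1108.6 and 1158.3 in control cells, without overlap (-0.33, SE 0.09, adjusted p = 0.158). IKZF1 had 0.56 (SE 0.29, adjusted p = 0.454), ZBTB7A -0.15 and SALL2 0.07.

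Relatives of NACC2 by its BEN or BTB domain had a median of 0.04 over 7 measured genes of 12. BEND6 had 224.3, 239.9 and 219.6 in depleted cells and 149.6, 174.3 and 151.6 in control cells. It was higher in all 3 depleted arrays but missed the threshold (0.53, SE 0.18, adjusted p = 0.238). The second BEND6 probe set was too dim to test. ZBTB17 had -0.27 (adjusted p = 0.392), BEND7 0.19 and ZBTB20 -0.16.

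MDM2, the gene that NACC2 is known to repress, had 2562.4, 2273.5 and 2592.2 in depleted cells and 2364.5, 2056.6 and 2457 in control cells. The groups overlapped, and the log2 difference of 0.11 (SE 0.09) missed the threshold (adjusted p = 0.65). Its other 6 tested probe sets had differences between -0.02 and 0.36, with adjusted p-values from 0.576 to 0.983. MDM4, a relative of MDM2, had 0.03 (adjusted p = 0.925), and CDKN1A, a cell cycle inhibitor induced by p53, had -0.27 (SE 0.11, adjusted p = 0.312).

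**Figure D4:**
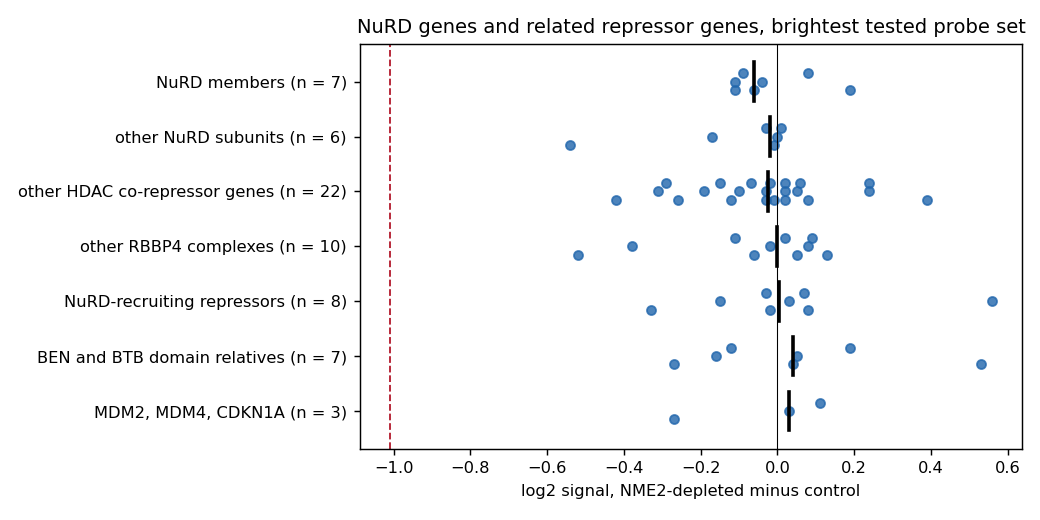
Log2 difference in signal, NME2-depleted minus control, of NuRD genes and of 6 lists of related genes. Each point is a gene by its brightest tested probe set, black bars are medians and the dashed red line is NACC2 at -1.01. Medians lie between -0.06 and 0.04, and the lowest gene of these lists is GATAD2A at -0.54.

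The genes whose brightest probe set followed NACC2 212993_at most closely across the 6 arrays were PIP4K2A, GLE1, MARVELD1, TFDP2 and ATP2B1-AS1, with Pearson correlations of log2 signal of 0.995, 0.993, 0.993, 0.992 and 0.990. These are the 5 highest of all genes tested, the points share the difference between the groups, and 6 arrays are few for such a ranking. Each was lower in all 3 depleted arrays, by log2 differences of -0.31, -0.44, -0.58, -0.30 and -0.42, smaller than that of NACC2. MARVELD1 had 882.1, 783.1 and 909.9 in depleted cells and 1201.1, 1254 and 1387 in control cells.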

How the data were processed

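The 6 arrays were grouped by their titles. The authors converted RNA to biotin-labelled cRNA, and each probe set has a deposited intensity on a linear scale (GCOS 1.1.1 according to the submitters' processing notes). The authors had scaled the arrays to 1 trimmed mean (500.06 to 500.07 after trimming 2% at each end). Global scaling hides a shift shared by all transcripts. Arrays have no read depth, and 3 per group limit the precision.

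Here 62 control probe sets were left out, 1 was the floor for signals (0.327% lay under it), and the log2 values were not normalized again. The brighter probe sets, from the median of mean log2 signal upwards, entered a limma fit (version 3.58.1, R 4.3.3; lmFit, eBayes with an intensity trend), with p-values adjusted by Benjamini-Hochberg over all 27307. Standard errors are from this fit, and folds are 2 to the power of the log2 difference. The fit was also run on simulated data with independent noise on each array and no replicate effect. No result here rests on that run. Symbols came from the platform annotation of 2016, and all 10 matched RefSeq by gene identifier.

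The members and lists were chosen with earlier results of these data known. Named were every probe set of the 10 genes, NME2, all genes past the threshold or up to 4 of lowest p in each list (all of the NuRD and MDM2 lists), and the 5 genes most like NACC2. MX1 and cell type markers were read as checks. Alternatives were quantile normalization, median centring, an offset, other filters, no intensity trend, a replicate block, each array left out, the methods' t-test and other choices of probe set. List genes for which no probe set carried 1 symbol were not analysed here.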

Additional observations from a re-analysis of the deposited data

How the results depend on the processing

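NACC2 was lower under every alternative run, with log2 differences from -1.07 to -0.89 when each array was left out in turn. The mean of its tested probe sets gave -0.66. The count of member probe sets past the threshold, 1, stayed at 1 with each array left out, but was 0 with no intensity trend in limma, 0 by the methods' t-test after Benjamini-Hochberg and 0 without both arrays numbered 1, an alternative added after the data were seen. The unadjusted t-test gave 2 of 22, beside 3065 of all 27307 tested probe sets. Of 155 alternative values for member differences, 151 moved by less than 1 SD between replicates. The other 4 were the means over the probe sets of HDAC2 (-0.32), MBD3 (-0.08) and NACC2, and the second NACC2 probe set after median centring (-0.36), which shifts the median of all probe sets from 0.01 to -0.04.

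The count of changed probe sets, 108 (32 higher, 76 lower), depended on the setting. It was 30 with no filter, 192 with a filter at the 75th percentile, 0 with no intensity trend, 4 without both arrays numbered 1, 3065 by the unadjusted t-test (1584 higher, 1481 lower) and 0 by that test after adjustment, and 8 to 63 with each array left out. Median centring gave 127, with 20 higher and 107 lower. The cause was not tested. With the replicate number as a block it was 464, and CDKN1A passed, which made 1 gene in the list with MDM2. The other 5 lists held 0 genes past the threshold under each limma alternative. Same-numbered arrays deviated together only weakly (correlations of 0.11, 0.08 and 0.07), although each array correlated best with its own number, so the numbers were not taken as pairs.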
